A study of Bos taurus with 8 samples.

Results

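LOC100337044 is a gene on the minus strand of bovine chromosome 7, covered by 20 consecutive 3Kb windows from 18508846 to 18568845 of UMD v3.1. These 20 windows are those of the 902984 windows in the deposited counts that carry the gene's name, and 37539 of all windows lie on chromosome 7. The 20 windows on each side were added by position, which gives a region of 60 windows. The gene was chosen by its breed difference in these libraries, so the values of its own windows are described without a test, and tests are given only for the windows beside it. The libraries come from fibroblasts grown out of the skin of 4 Holstein (dairy) and 4 Angus (beef) heifers. There was 1 culture per animal, at passage 5, un-treated, that is without exposure to LPS. All animals were females of a similar age, cultures had been frozen and revived, and rearing practice differs between dairy and beef calves, so breed and rearing cannot be told apart. Cultures are named by breed and animal number, and values of a breed are listed in the order of these numbers, 1 to 4.

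MIRA-Seq pulls down sonicated DNA with a protein pair, MBD2b and MBD3L1, that holds on to methylated CpG sites, and sequences what is bound. In mammalian cells CpG sites within gene bodies and between genes are mostly methylated, whereas CpG-rich promoters are mostly not. A window's read count rises with the number of methylated CpG sites and with the number of copies of that DNA in the cells. No input library was analysed here, so methylation and DNA copies cannot be told apart in any value given for the gene. The libraries hold DNA, so the markers by which fibroblasts are known could not be checked, and RNA from these cultures was not analysed here. No function is given here for LOC100337044, which the RefSeq table of another assembly (ARS-UCD2.0) lists as protein coding.

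Totals over all windows lay between 18691111 reads (Angus 4) and 35525554 reads (Holstein 4), and 3 reads in a window corresponded to 0.0844 to 0.161 CPM, the reads of a window scaled to equal library totals. Values at or near 0 are limited by this depth, and counting limits cover counting error only. TMM factors, which rescale a library for its composition, ranged from 0.677 (Angus 3) to 1.22 (Holstein 4). Holstein 2 stood apart from the other Holstein libraries over part of the gene. The main values that rest on it are therefore also given without it.

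Reads were nearly absent from the exon 1 end of the gene in 3 of the 4 Holstein libraries and present in all 4 Angus libraries. The change began inside the gene and ended with its last window. A run was defined, after the values were seen, as the longest stretch of region windows whose Holstein median was at most 2 reads. It held 13 consecutive windows from 18529846 to 18568845, a length of 39.0 kb, in which the annotation places coding exons 10, 9, 7, 6, 5, 3, 2 and 1. The annotation names at most 1 coding exon per window, so exons missing from this list may still lie in these windows. Summed over the run, Holstein 1, 3 and 4 had 4, 4 and 6 reads. Holstein 2 had 92 reads. Angus 1 to 4 had 182, 154, 112 and 77 reads. In reads, Holstein 2 thus lay among the Angus libraries and far above the other Holstein libraries. As a share of the region's reads, given below, it was under every Angus library.

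Scaled to library size, the run held 0.202, 3.98, 0.151 and 0.169 CPM in Holstein 1 to 4. It held 6.35, 5.35, 3.76 and 4.12 CPM in Angus 1 to 4. The groups overlapped only because Holstein 2 exceeded Angus 3. The Holstein mean was 1.13 ± 1.90 CPM and the Angus mean 4.90 ± 1.19 CPM (SD, n = 4 each), which differ by -3.77 CPM. Without Holstein 2 the Holstein mean was 0.174 ± 0.0259 CPM (SD, n = 3) and the difference was -4.72 CPM. Of the 13 windows, 10, 9 and 8 had no read in Holstein 1, 3 and 4, and none of the 13 was empty in Holstein 2. Angus 2 and Angus 4 each had 1 empty window, and Angus 1 and Angus 3 had 0.

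**Figure D1:**
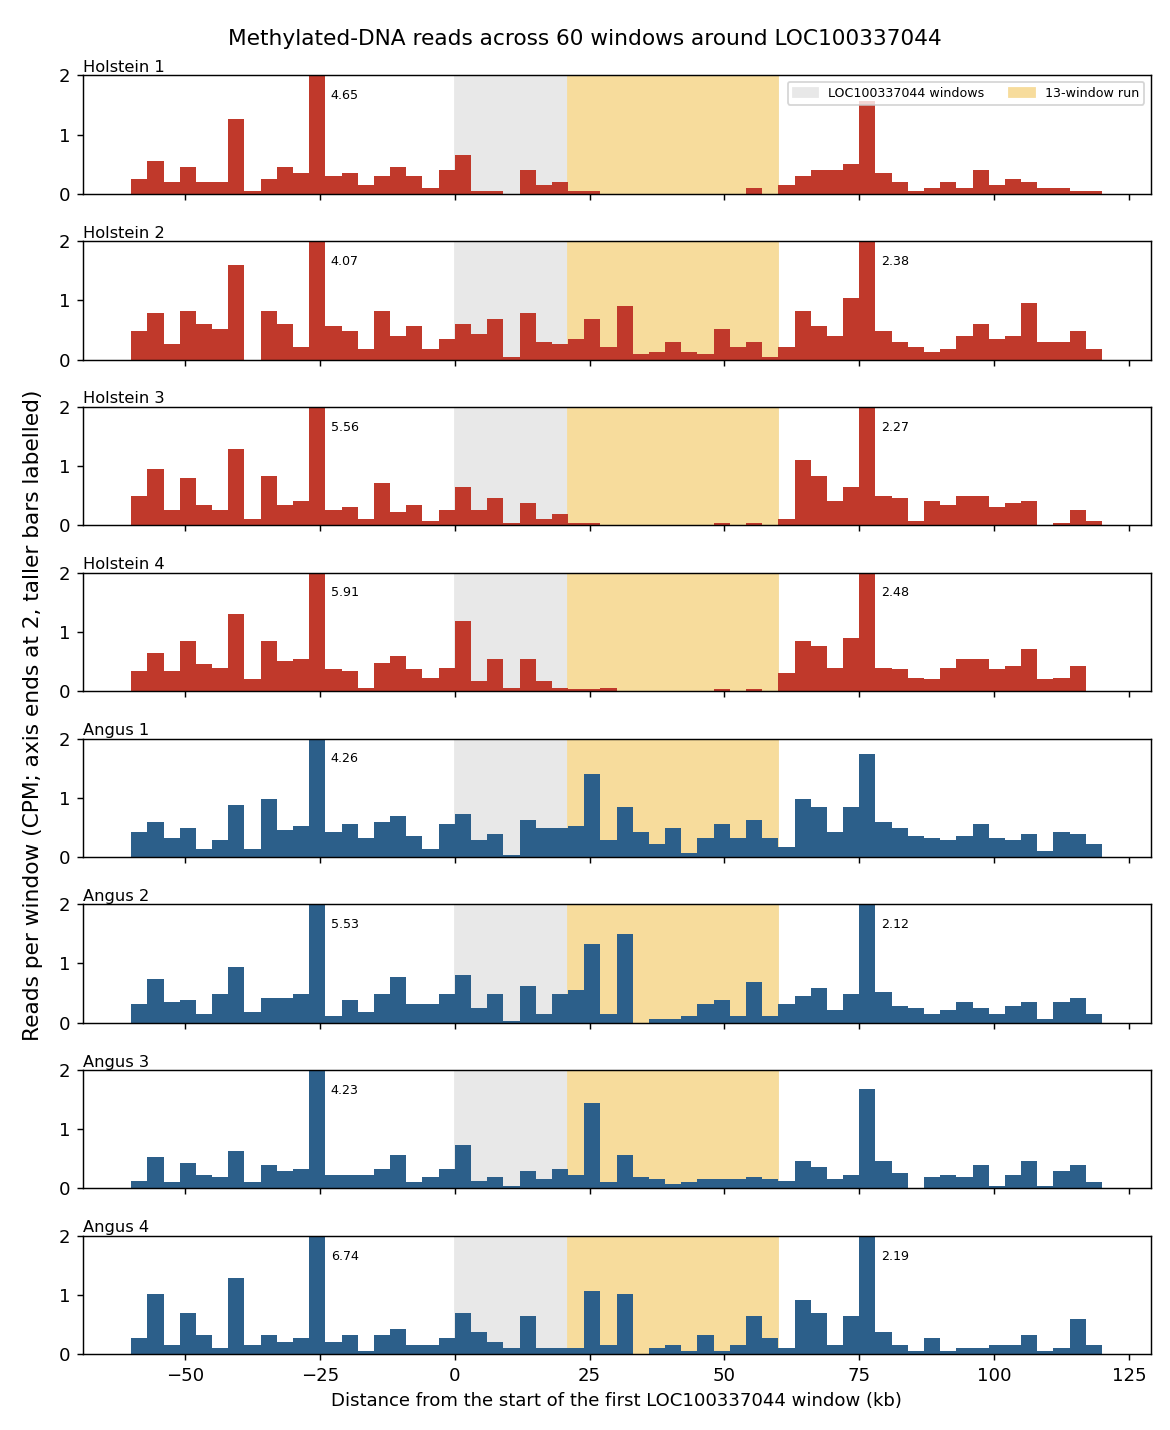
Reads per window in CPM (vertical axis, ending at 2, with taller bars labelled) against the distance in kb from the start of the first LOC100337044 window, for each of the 8 libraries; grey marks the gene's windows and yellow the 13-window run. The run is nearly empty in Holstein 1, 3 and 4 and carries reads in Holstein 2 and in Angus 1 to 4, while the windows on both sides carry reads in all 8 libraries.

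The window with coding exon 9 (18532846 to 18535845) had the most Angus reads of the 20. It held 40, 38, 43 and 20 reads in the Angus libraries, against 1, 16, 1 and 1 in the Holstein ones. Every Angus library was above every Holstein library in CPM, with means of 1.31 ± 0.166 CPM for Angus against 0.202 ± 0.327 CPM for Holstein (SD, n = 4 each). The fitted log2 fold change, Holstein over Angus in edgeR with TMM scaling, was -2.99 (SE 0.43), and -5.19 without Holstein 2. Every SE of a log2 fold change given here was worked back from the p-value of edgeR's likelihood-ratio test. It is therefore not a separate measure of spread, and no test is read from it for the gene's windows. This was the only gene window to pass the filter of at least 1 CPM in at least 4 samples, and it passed through the 4 Angus libraries alone. The highest coverage at any position of the window was 10, 16, 21 and 8 in Angus 1 to 4 and 1, 5, 1 and 1 in Holstein 1 to 4. Of all autosomal windows, 91.8% had a lower Angus mean than this window, and 33.0% had a lower Holstein mean.

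The window with exon 7 (18538846 to 18541845) was the next in Angus reads. The Angus libraries held 24, 43, 17 and 19 reads. There was no read in Holstein 1, 3 and 4, which allows up to 0.152, 0.114 and 0.0844 CPM in these libraries, and 21 reads in Holstein 2. In CPM, Holstein 2 lay inside the Angus range. The means were 0.980 ± 0.389 CPM for Angus against 0.227 ± 0.454 CPM for Holstein (SD, n = 4 each), and the log2 fold change was -2.30 (SE 0.54). Without Holstein 2 the fitted value was -7.77, but with all other Holstein libraries at 0 it depends on edgeR's prior count. Against the mean of their limits of 3 reads per library (0.117 CPM), the level was at least 8.41-fold lower than the Angus mean.

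The window with exon 1 (18565846 to 18568845), the first coding exon, had the most negative log2 fold change of the 20 at -4.06 (SE 0.82). It held 9, 3, 5 and 5 reads in the Angus libraries, against 0, 1, 0 and 0 in the Holstein ones. The Angus counts were low here but none was 0. Pooled over libraries and scaled by totals, Angus had 21.8 times the Holstein reads, with an exact 95% counting interval of 3.52 to 899, which is wide because Holstein had a single read. Here Holstein 2, at 0.0433 CPM, was also below every Angus library. Without Holstein 2 the fitted value was -5.60, no longer the most negative of the 20, and the bound from 3 reads per library was at least 1.83-fold lower.

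The exon 3 window (18553846 to 18556845) was the other low-count window in which every Angus library exceeded every Holstein library. It held 9, 9, 5 and 6 reads in the Angus libraries, against 0, 2, 0 and 0 in the Holstein ones, a ratio of 14.4 with an exact 95% counting interval of 3.63 to 124. Without Holstein 2 the level was at least 2.39-fold lower by the same bound. Together with the windows of exons 9 and 1, this makes 3 of 20 gene windows in which the breeds did not overlap, beside 0.210% of the 115416 windows fitted with every Angus library above every Holstein library. The gene was chosen by this contrast, so nothing is read from the count.

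Between exon 3 and exon 1, the exon 2 window (18556846 to 18559845) held 16, 11, 5 and 1 reads in the Angus libraries, against 0, 12, 1 and 1 in the Holstein ones. Holstein 2 was exceeded in reads only by Angus 1, and the breeds overlapped. The window before exon 1 (18562846 to 18565845), in which no coding exon is placed, held 18, 20, 6 and 12 reads in the Angus libraries, against 2, 7, 1 and 1 in the Holstein ones. Its log2 fold change was -2.43 (SE 0.45), so windows without a coding exon were low as well.

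At the other end of the run, the exon 10 window (18529846 to 18532845) held 15, 16, 7 and 2 reads in the Angus libraries, against 1, 8, 1 and 1 in the Holstein ones. Its log2 fold change was -1.93 (SE 0.50). Angus 4 and Holstein 2 overlapped the other breed. The exon 6 window (18541846 to 18544845) was uneven within Angus, with 12, 0, 6 and 0 reads, against 0, 2, 0 and 0 reads in Holstein 1 to 4. The exon 5 window (18547846 to 18550845) held 14, 2, 2 and 3 reads in the Angus libraries, against 0, 7, 0 and 0 in the Holstein ones. In each of these windows Holstein 1, 3 and 4 had at most 1 read.

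The remaining 4 windows of the run have no coding exon and few reads in either breed. The window from 18535846 held 8, 4, 3 and 3 reads in the Angus libraries, against 0, 5, 0 and 2 in the Holstein ones. The windows from 18544846, 18550846 and 18559846 had between 1 and 9 reads in Angus libraries, between 3 and 5 in Holstein 2, and none in Holstein 1, 3 and 4. Over the 8 run windows with a coding exon, the sums were 0.821 ± 1.44 CPM for Holstein against 3.78 ± 0.922 CPM for Angus (SD, n = 4 each). Over the 5 without one, they were 0.305 ± 0.461 CPM for Holstein against 1.12 ± 0.311 CPM for Angus (SD, n = 4 each). Reads were low in Holstein 1, 3 and 4 in both kinds of window.

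The part of the gene from exon 15 to exon 11, the other 7 windows (18508846 to 18529845), carried sums that overlapped between the breeds. It held 30, 72, 55 and 96 reads in the Holstein libraries, against 87, 81, 57 and 42 in the Angus ones. These are 2.35 ± 0.702 CPM for Holstein against 2.50 ± 0.515 CPM for Angus (SD, n = 4 each), and the breeds overlapped in all 7 windows. The exon 15 window (18508846 to 18511845), the last coding exon, had 13, 14, 17 and 42 reads in the Holstein libraries, against 21, 23, 22 and 13 in the Angus ones. Its log2 fold change was -0.09 (SE 0.28). The exon 13 window (18520846 to 18523845) held 8, 18, 10 and 19 reads in the Holstein libraries, against 18, 18, 9 and 12 in the Angus ones, and its log2 fold change was -0.21 (SE 0.31). The exon 14 window had between 0 and 2 reads in every library and is too low to compare. The 3 windows without a coding exon had log2 fold changes of -0.28, 0.26 and -0.55.

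The window just before the run had a fitted value inside the run's range of -4.06 to -1.30, though its Holstein median was 4.5 reads. The window just after the run lay outside that range. With 3Kb windows and these low counts, a gradual edge cannot be told from a sharp edge inside a window. The exon 11 window (18526846 to 18529845), just before the run, held 4, 6, 5 and 2 reads in the Holstein libraries, against 14, 14, 10 and 2 in the Angus ones, and its log2 fold change was -1.34 (SE 0.44). In Holstein 4 the stretch with 0 to 2 reads per window therefore began here and covered 14 windows, against 13 in Holstein 1 and Holstein 3. The longest such stretch was 1 window in Holstein 2, Angus 1 and Angus 3, and 3 windows in Angus 2 and Angus 4. The first window beyond exon 1 (18568846 to 18571845) held 3, 5, 3 and 11 reads in the Holstein libraries, against 5, 9, 4 and 2 in the Angus ones. Its log2 fold change was -0.04 (SE 0.47), next to -4.06 in the exon 1 window.

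**Figure D2:**
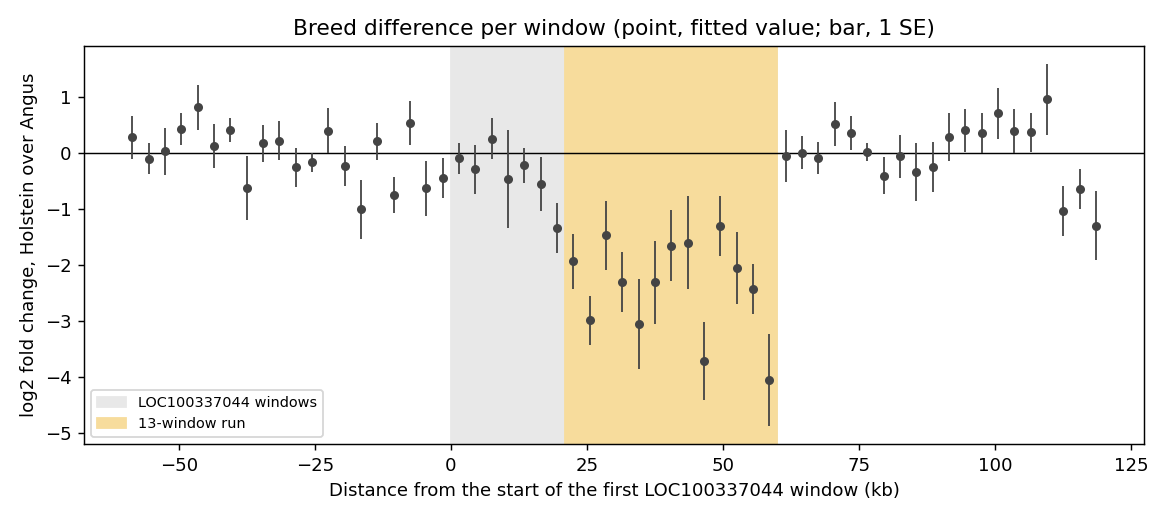
Fitted log2 fold change per window, Holstein over Angus (vertical axis; points are fitted values and bars 1 SE, worked back from the likelihood-ratio p-value), against the distance in kb from the start of the first LOC100337044 window; grey marks the gene's windows and yellow the run. All 13 run windows lie between -4.06 and -1.30, and the 40 windows beside the gene lie between -1.29 and 0.97.

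Across the 20 windows, 19 log2 fold changes were below 0, with a median of -1.62. The 13 run windows ranged from -4.06 to -1.30 with a median of -2.30, and the other 7 from -1.34 to 0.26 with a median of -0.28. Without Holstein 2 the fitted run values ranged from -7.77 to -2.76 with a median of -5.19, but 8 of the 13 windows then had no Holstein read. With 7 of these set to their bound and 1 left out, as both breeds were within the limit of 3 reads, the median of 12 windows was -2.01. Each bound is a least difference, so this median is a limit over those 12 windows and not an estimate. The window left out has no bound, so the median is not a limit for all 13 run windows. It cannot be set against the median of -2.30 with all libraries. Over all 115416 windows fitted the median was 0.00, and with totals alone, without TMM, it was 0.14, where the median of the run was -2.11. In 14 gene windows, 13 of them in the run, the value was at or below -1, beside 0.504% of all windows fitted. The thresholds for a differentially methylated region (DMR, FDR < 0.1 and FC ≥ 2), with the CPM filter set aside for the region, were met in 7 gene windows, all in the run and lower in Holstein, beside 0.197% of all windows fitted. In either direction 0.237% met them. Of the 7, only the exon 9 window also passed the filter of 1 CPM in 4 samples, and with that filter alone it was the 1 gene window tested and the 1 that met them. With edgeR's quasi-likelihood test the count of gene windows was 1, with DESeq2 it was 0, and without Holstein 2 it was 11. DESeq2's filters can leave a window without an FDR, and such a window was counted as not meeting the thresholds. For the exon 9 window DESeq2 gave a log2 fold change of -2.97, against -2.99 in edgeR. Because this contrast chose the gene, these counts describe it and support nothing.

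The share of the region's reads that fell in the run does not depend on library size. It was 1.08% in Holstein 1 (4 of 369 reads, Wilson 95% interval 0.422 to 2.75), 0.587% in Holstein 3 (4 of 682, 0.228 to 1.498) and 0.589% in Holstein 4 (6 of 1018, 0.270 to 1.28). In Holstein 2 it was 12.4% (92 of 740, 10.2 to 15.0). In Angus 1 to 4 it was 19.5% (17.1 to 22.2), 18.2% (15.7 to 20.9), 17.1% (14.4 to 20.2) and 15.1% (12.3 to 18.5). On this scale Holstein 2 lay below every Angus library, though its interval overlapped those of Angus 3 and Angus 4. Per 100 reads in the 40 windows beside the gene, the run held 15.97 reads in Holstein 2 and 19.7 to 27.5 reads in the Angus libraries. It held 1.19, 0.642 and 0.655 reads in Holstein 1, 3 and 4. The 7 gene windows outside the run took 8.06 to 9.73% of the region's reads in Holstein libraries and 8.25 to 9.56% in Angus libraries, so their shares overlapped.

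**Figure D3:**
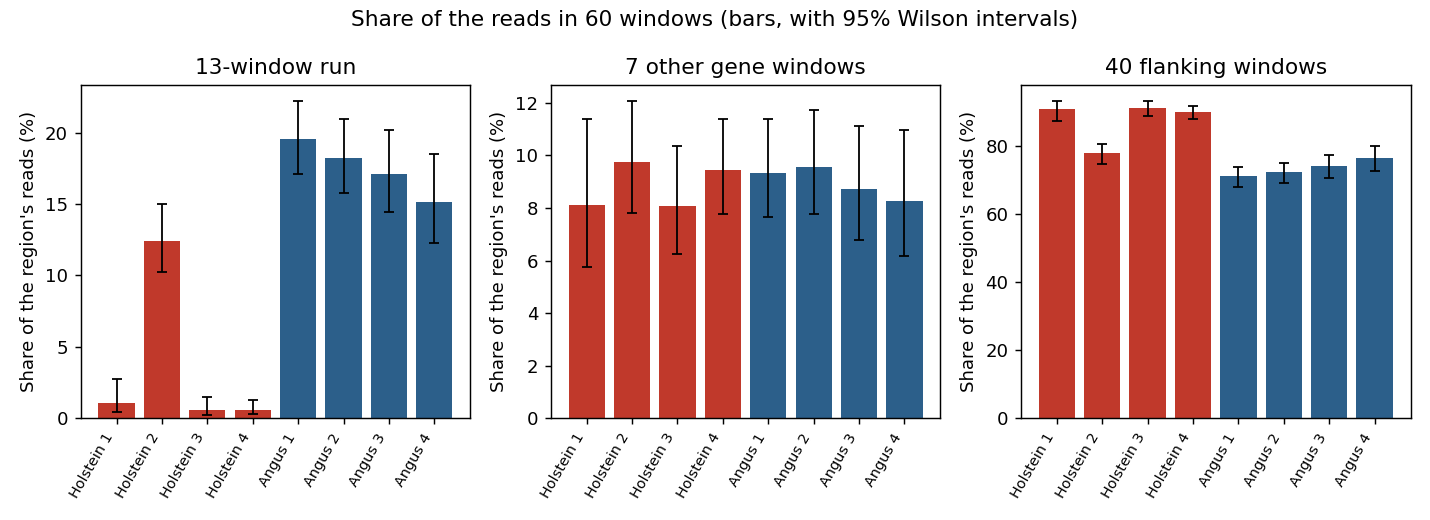
Share of the reads in the 60 windows (vertical axes, in percent, each from 0) that fell in the 13-window run, in the 7 other gene windows and in the 40 flanking windows, per library, with Wilson 95% intervals as error bars. Holstein 1, 3 and 4 stand near 1% in the run, Holstein 2 at 12.4% and the Angus libraries at 15.1 to 19.5%, while the 7 other windows take 8.06 to 9.73% in every library.

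The 40 windows beside the gene were taken by position and could be tested. None was called a DMR in edgeR's likelihood-ratio test, with a smallest Benjamini-Hochberg FDR of 0.828, and in none did the breeds separate completely. Over all windows fitted, 0.237% were called and 0.210% had every Angus library above every Holstein library. Only 3 of the 40 passed the filter of 1 CPM in 4 samples. At such shares and low counts, finding 0 among 40 says little. An unadjusted p under 0.05 was found for 4 of the 40, beside 4.95% of all windows fitted, and 3 of these were lower in Holstein. The quasi-likelihood test and DESeq2 each gave 0 at that level and 0 DMRs. Of the 40 log2 fold changes, 18 were below 0 and 22 above, with a median of 0.03 and a range of -1.29 to 0.97. The 2 most negative were at 18625846 (-1.29, SE 0.62) and 18619846 (-1.03, SE 0.45), both in LOC100337081 and well beyond the run, and the 2 others with an unadjusted p under 0.05 were at 18496846 (-0.75, SE 0.32) and 18460846 (0.82, SE 0.41).

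Summed over the 20 windows beyond exon 15 (18448846 to 18508845), Holstein 1 to 4 held 11.3, 14.3, 13.96 and 15.1 CPM and Angus 1 to 4 held 13.1, 13.4, 9.91 and 13.5 CPM. The means were 13.7 ± 1.66 and 12.5 ± 1.71 CPM (SD, n = 4 each), which did not differ beyond the spread between animals (exact two-sided permutation test, p = 0.400, adjusted p = 0.457 over both sides). Summed over the 20 windows beyond exon 1 (18568846 to 18628845), Holstein 1 to 4 held 5.66, 10.6, 9.61 and 10.7 CPM and Angus 1 to 4 held 10.02, 7.89, 6.41 and 7.38 CPM. The means were 9.15 ± 2.37 and 7.93 ± 1.52 CPM (SD, n = 4 each; exact two-sided permutation test, p = 0.457, adjusted p = 0.457). With 4 against 4 samples this test cannot go below 0.0286. In both sums Holstein 1 was the lowest Holstein library, and Holstein 3 and Holstein 4 lay close to Holstein 2, unlike in the run.

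The genes named beside LOC100337044 gave values that overlapped between breeds. ACTL9, an actin-like protein gene on the minus strand, had 1 window (18481846 to 18484845) and the highest level of the region, at 5.05 ± 0.842 CPM for Holstein against 5.19 ± 1.20 CPM for Angus (SD, n = 4 each). OR2Z1, an olfactory receptor gene on the plus strand, had 2 windows (18493846 to 18499845) with 0.997 ± 0.192 CPM for Holstein against 1.05 ± 0.265 CPM for Angus. LOC788956, the closest named gene beyond exon 1 and listed as a pseudogene by RefSeq, had 0.767 ± 0.333 CPM for Holstein against 0.702 ± 0.280 CPM for Angus in 1 window (18571846 to 18574845). LOC512831 had 0.772 ± 0.242 CPM for Holstein against 0.550 ± 0.255 CPM for Angus in 1 window (18580846 to 18583845). None of these windows was called.

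LOC100337081 begins at 18586846, lies on the same strand as LOC100337044 and has 33 windows, 14 of them in the region. Over all 33 windows it held 102, 256, 236 and 400 reads in the Holstein libraries, against 301, 257, 194 and 111 in the Angus ones. Its sums were 9.11 ± 2.84 CPM for Holstein against 7.97 ± 2.13 CPM for Angus (SD, n = 4 each). Reads were thus present in Holstein 1, 3 and 4 on the far side of the run. The RefSeq table matched 5 of the 6 gene symbols of the region and placed 2 pseudogenes inside the span of LOC100337044 in its own assembly. Whether reads of the run could also have been placed at a similar copy elsewhere was not tested.

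The length of the run was set beside that of other runs on the autosomes, as a description. Of 837275 autosomal windows, 26079 (3.11%) had a Holstein median of at most 2 reads and an Angus median above it, and they formed 24467 runs, of which 22991 were single windows. Runs of at least 4 windows numbered 19, runs of at least 5 numbered 3, and only the run in LOC100337044 reached 13. The next longest held 7 windows, on chromosome 12 (76184322 to 76205321). In the other direction, low in Angus, 44859 windows formed 40904 runs, and the longest also held 13 windows, on chromosome 12 (72804422 to 72843421) in a stretch without a named gene. That run held 1, 111, 64 and 160 reads in the Holstein libraries, against 7, 3, 35 and 3 in the Angus ones. There a single library of the low breed, Angus 3, stood above the other Angus libraries, and Holstein 1 was nearly empty.

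**Figure D4:**
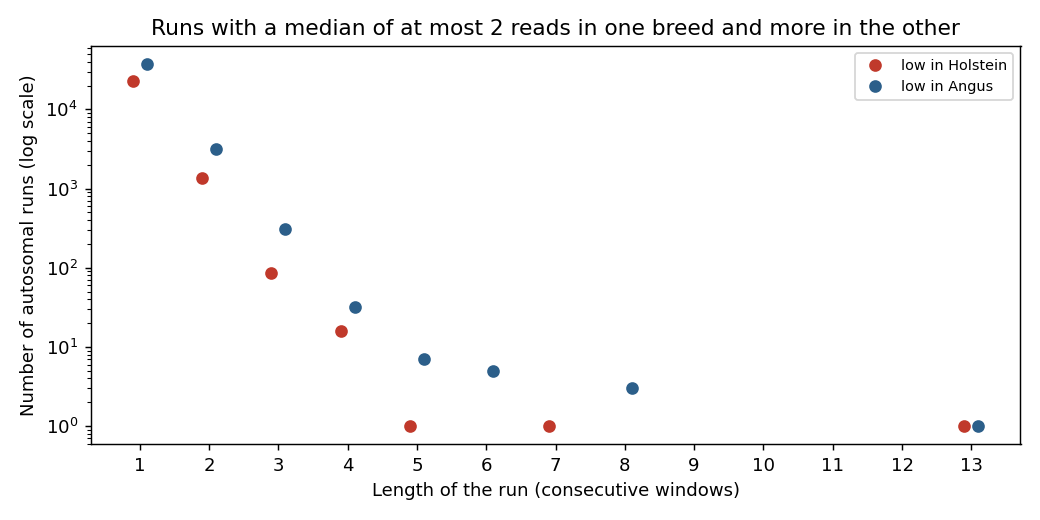
Number of autosomal runs (vertical axis, log scale) by length in consecutive windows, for runs with a median of at most 2 reads in one breed and more in the other; red, low in Holstein, and blue, low in Angus. Single windows make up 22991 of the 24467 runs low in Holstein, and 1 run in each direction reaches 13 windows, the red one being that of LOC100337044.

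The run lay at an ordinary level in Angus and at a low level in Holstein. The median of the mean level per window in Angus was 0.213 CPM over the run, 0.258 CPM over chromosome 7 and 0.273 CPM over the autosomes. In Holstein it was 0.0682 CPM over the run, 0.290 CPM over chromosome 7 and 0.310 CPM over the autosomes. The exon 1 window had a lower mean than all but 39.8% of autosomal windows in Angus and all but 0.753% in Holstein. These levels are per 3Kb window, so windows have equal length, but the number of CpG sites in them was not known.

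The windows elsewhere whose levels followed the exon 1 window most closely over the 8 libraries were sought as a description, by Pearson's r of log2(CPM + 0.5) over 113560 placed windows that passed the filter. The closest lay on chromosome 6 (99014382 to 99017381) in ENOPH1, an enzyme gene of the methionine salvage pathway, with r of 0.95. It held 15, 20, 20 and 31 reads in the Holstein libraries, against 41, 34, 38 and 24 in the Angus ones. The second lay on chromosome X (55935095 to 55938094, r of 0.92), with 39, 56, 44 and 78 reads in the Holstein libraries, against 149, 133, 103 and 119 in the Angus ones. The third lay on chromosome 15 (27535857 to 27538856, r of 0.91), with 3, 28, 24 and 24 reads in the Holstein libraries, against 153, 21, 113 and 158 in the Angus ones. None of the 3 was nearly empty in Holstein 1, 3 and 4 but not in Holstein 2, as the run was. The exon 1 window itself held only 1 read in Holstein 2 and did not pass the filter. The search was therefore not one for the run's pattern and cannot say whether it occurs elsewhere. Among the gene's own windows, r with the exon 1 window was 0.44 to 0.89 over the other 12 of the run and -0.18 to 0.44 over the 7 outside it. The exon 1 window was picked for its breed difference and the run for low Holstein counts. A higher r inside the run therefore follows from how both were chosen, and nothing is read from it. All points share libraries and depth, and with 8 libraries of 2 breeds a high r across so many windows carries no test.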

How the data were processed

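The authors sequenced 1 MIRA-Seq library per culture, filtered reads on quality, mapped them with NextGENe 2.3.4 (UMD v3.1) and deposited raw read counts per 3Kb window, with the gene name and coding exon of each window. They also deposited the highest coverage of each window, a signal not scaled for depth. The submitters' processing notes name CASAVA 1.7. The treatment of duplicate reads and of reads matching several places is not given in the sources used here. Totals over windows served as library sizes, and no pair of libraries of a breed differed by as little as sampling noise.

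Counts were fitted with edgeR 4.0.16 in R 4.3.3, using the likelihood-ratio test, Benjamini-Hochberg adjustment and CPM filter of the study's methods, and TMM scaling, which those methods do not name, over windows that reached a CPM of 1 in 4 or more samples, to which the region's windows were added (115416 in all). A call needed FDR < 0.1 and FC ≥ 2. The SE of a log2 fold change was its size divided by the normal deviate of the likelihood-ratio p-value. Sums were compared by exact permutation tests with scipy 1.17.1 (Python 3.11.15, pandas 2.3.3, numpy 2.4.6), and figures were drawn with matplotlib 3.10.9. The window fits were tested on data simulated from windows that passed the CPM filter. Counts as low as those of most windows of the region were not simulated, and the permutation tests were not simulated either.

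The gene and the lists were chosen with earlier results of these data known, and the gene was selected on its measured breed difference. Named items were every gene of the region, every window of LOC100337044, called windows beside it, and the 3 windows elsewhere with the highest correlation to the gene window of largest change; uncalled windows beside the gene with a low unadjusted p, and the longest runs elsewhere, were named after their values were seen. The 13-window run was also defined afterwards. Animal numbers did not pair the samples. The alternatives were edgeR's quasi-likelihood test, DESeq2 1.42.0, other scalings, filters, thresholds and flank widths, the animal number as a block, and each sample left out in turn. A window left without an FDR by DESeq2 was counted as not called. No genome sequence of UMD v3.1 was used here, so no sequence is shown. Gene types came from a RefSeq table of ARS-UCD2.0. Its coordinates served only to find entries inside the span of LOC100337044 in that assembly, and no window was placed by them.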

Additional observations from a re-analysis of the deposited data

Results flagged for a closer look

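In groups of 4 libraries, a library was marked where its gap to the nearest other exceeded Dixon's limit. Of 52 groups tested for the gene windows and sums, 19 were marked, 12 of them for Holstein 2. The usual chance rate of about 1 in 20 does not hold here. Where all other libraries of a group are at 0, any read is marked, and the run was defined by low Holstein counts. Nothing is therefore read from the number of marks. The windows share libraries and neighbours and are not independent.

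Holstein 2 was the highest Holstein library of the run sum at 3.98 CPM. It was the highest Holstein library in all 13 run windows, and in 11 of them past the limit: at 18529846 (0.346 CPM), 18532846 (0.692 CPM), 18538846 (0.909 CPM), 18541846 (0.0866 CPM), 18544846 (0.130 CPM), 18547846 (0.303 CPM), 18550846 (0.130 CPM), 18553846 (0.0866 CPM), 18556846 (0.519 CPM), 18559846 (0.216 CPM) and 18565846 (0.0433 CPM). In most of these windows the other Holstein libraries were at 0.

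Outside the run, Holstein 4 stood apart in the exon 15 window at 18508846 (1.18 CPM). In Angus, the marked values were Angus 4 at 18517846 (0.107 CPM), Angus 3 at 18520846 (0.302 CPM), Angus 1 at 18523846 (0.489 CPM), Angus 3 at 18553846 (0.168 CPM) and at 18562846 (0.201 CPM), and Angus 3 in the sum over the 20 windows beyond exon 15 (9.91 CPM).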

How the results depend on the processing

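No window beside the gene was called under any alternative, the replicate block included (0 windows). Some alternatives could not have added a call. A stricter FDR, fewer windows per side and no minimum fold change reused the main fit, where the smallest FDR beside the gene was 0.828. The CPM filter alone tested only 3 of the 40 windows. The run sum difference stayed below 0 in each setting added after the data were seen: -4.14 CPM with TMM library sizes, -4.80 CPM with autosomal totals, -3.77 CPM with the replicate block, and -4.72 to -3.29 CPM leaving out each sample. The sum beyond exon 15 changed direction with TMM library sizes (-0.0855 CPM) and over 10 windows (-0.121 CPM), neither past the test; leaving out each sample gave 0.340 to 1.99 CPM there and 0.713 to 2.38 CPM beyond exon 1. The cause was not tested. Of 260 values for the gene's 20 windows, 185 moved by less than 1 SD between replicates and 75 moved by more. The sign differed in 5 of them, in 2 windows outside the run (18508846 and 18523846), and in none of the run. The count of gene windows meeting the DMR thresholds ranged from 0 (DESeq2, a window without an FDR counted as not meeting them) to 11 (without Holstein 2). Animal numbers are shared labels only: same-numbered animals had a mean correlation of -0.0023, and the replicate block gave 352 calls over all windows against 273. Depth limits the run windows, since 3 reads correspond to 0.0844 to 0.161 CPM.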
